A study of Mus musculus with 8 samples.

Results

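The genes described here are 5 inducible adhesion molecules of blood vessels (Vcam1, Icam1, Madcam1, Sele and Selp) and 5 constitutive endothelial genes (Pecam1, Cdh5, Kdr, Plvap and Esam). The members are the 10 genes with those symbols, taken with every probe set whose platform annotation names exactly 1 of them. This gave 15 probe sets of the 34958 that carry a single symbol, 9 of them for the inducible and 6 for the constitutive genes. All 10 genes had a probe set, out of 18194 genes on the array, and 9 passed the filter on low values described below.

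RNA from laser-captured pancreatic islets of NOD.Scid mice was measured on 8 Affymetrix arrays. NOD.Scid mice come from a diabetes-prone strain and make no mature T or B cells of their own, so any T cell in these islets was transferred. The untreated group was 1 array of islets from mice given neither cells nor antibody. The diabetogenic arm was 3 arrays, from mice killed 3, 4 and 8 days after injection of CD4+ BDC2.5 transgenic T cells, which recognise a beta cell antigen. The protected arm was 4 arrays, from days 3, 4, 5 and 8, of mice given the same cells and injected with anti-Ifng antibody on the day before the transfer and 2 days after it. Each array held pooled RNA of 5 mice, with 1 array for each arm and day, so no value has a replicate at its own day. The labels name no control antibody, and day 5 was measured here in the protected arm only. The sources used here do not give the age of the mice.

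Leukocytes leave the blood in steps that different endothelial proteins carry. Selectins make them roll, integrin ligands such as VCAM-1 and ICAM-1 make them stop, and junction proteins such as PECAM-1 and VE-cadherin, the product of Cdh5, line the route between endothelial cells. Inflammatory cytokines acting through NF-kB, among them TNF and interleukin-1, switch on the genes of E-selectin, VCAM-1 and ICAM-1, and interferon-γ also induces ICAM-1. The capillaries of islets are dense and fenestrated, and PLVAP is the protein of the diaphragms that span those pores.

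Most of these genes were dim on all arrays. The array medians lay between 3.14 and 3.96 intensity units. As a guide to background, chosen after the data were seen, 27 probe sets for Bacillus transcripts were used, sequences that mouse RNA does not hold. Their 95th percentile lay between 3.97 and 4.78 on the untreated, both day 3 and the protected day 5 arrays, and between 6.34 and 9.20 on the other 4. The share of bright probe sets, those reaching 8 times the median of their array, was 0.850% on the diabetogenic array of day 4, 2.00% to 3.09% on the protected array of day 4 and both arrays of day 8, and 3.85% to 5.34% on the rest. Spiked hybridisation controls had a median of 1.48 to 2.29 on the untreated and day 3 arrays and of 551 to 1712 on all later ones, so the untreated array is matched in that respect by day 3 only. The 3' to 5' ratio of Actb, a sign of RNA or copy length, ran from 1.86 on the untreated array to 24.2 on the protected array of day 5. Ins2 stood between 3409 and 6359 on all 8 arrays, but other beta cell genes were lower after transfer. On the log2 scale given below, the 6 beta cell genes tested had a median difference from untreated islets on each array. It was -0.68, -3.13 and -2.42 in the diabetogenic arm (days 3, 4 and 8). In the protected arm (days 3, 4, 5 and 8) it was -0.60, -2.16, -1.34 and -1.45.

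Plvap was the clearest endothelial signal, above the Bacillus level on 7 of 8 arrays. Pecam1, by contrast, was above it on 0 of 8 arrays, so the gene most often used to mark endothelium gave no usable measurement here. Of the 15 probe sets, 3 were above that level on 0 arrays and 4 on 1 array. Values were compared as log2(intensity + 2.155), where the added constant is the 25th percentile of an array (median of the 8 arrays), and every fold below is on that scale, where folds of dim genes come out too small. A gene was tested if a probe set of it was at or above the array median on at least 2 arrays, and the probe set with the highest mean stood for the gene.

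**Figure D1:**
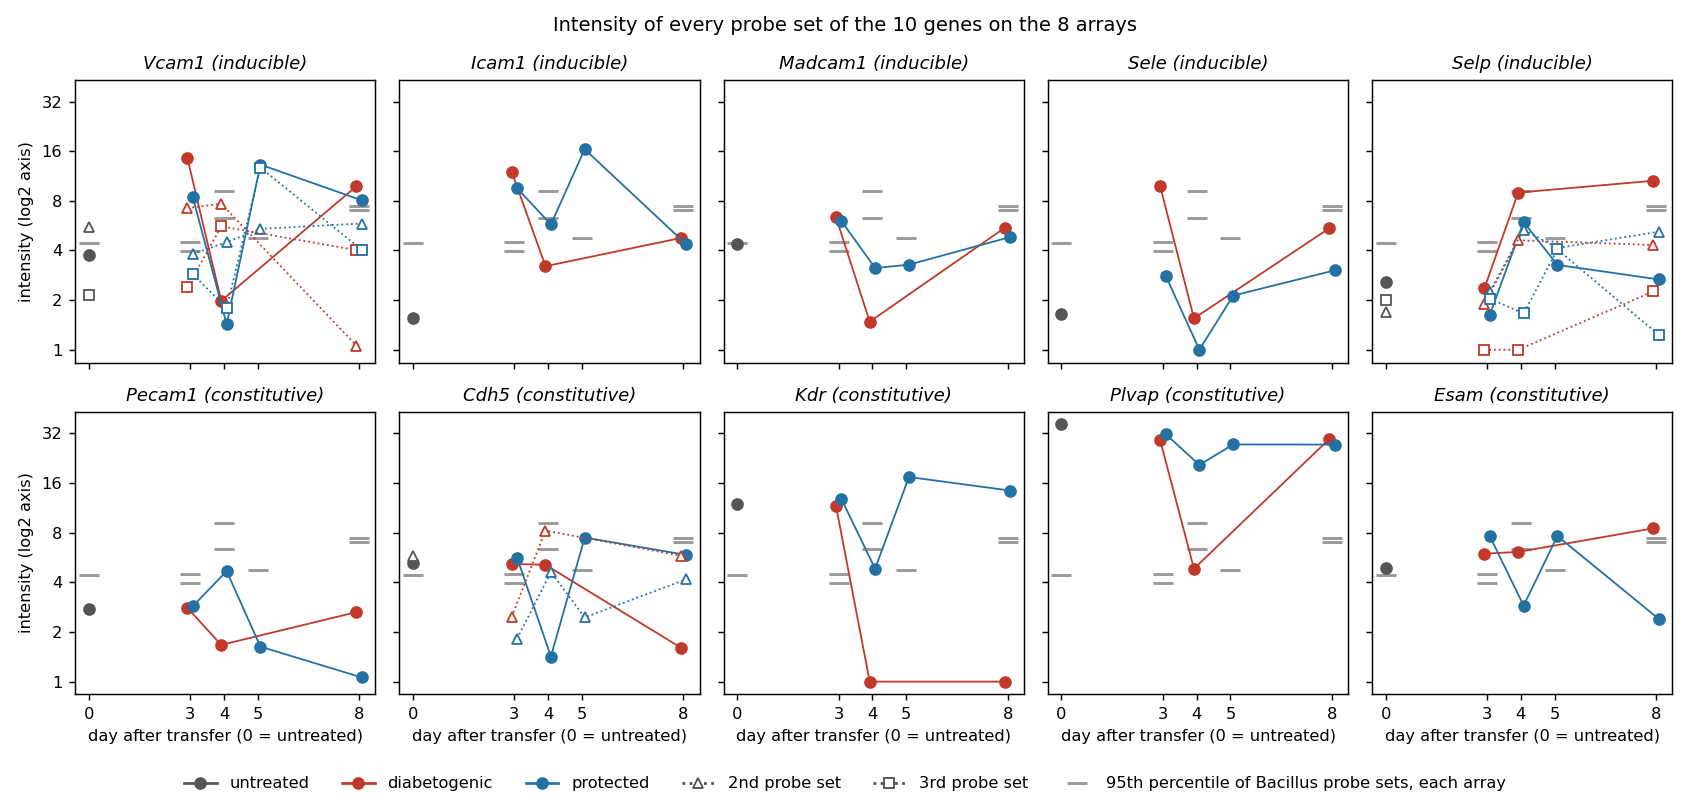
Intensity (log2 axis) of every probe set of the 10 genes against day after transfer, with the untreated array at day 0; filled circles are the probe set with the highest mean, open triangles and squares the others, and grey dashes the 95th percentile of the Bacillus probe sets on each array. Icam1, Vcam1 and Sele lie above the dashes on the diabetogenic array of day 3, and Kdr stands at 1 on the diabetogenic arrays of days 4 and 8.

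Icam1 encodes a ligand of the leukocyte integrins LFA-1 and Mac-1 and is made by endothelium as well as by macrophages and other activated cells. Its only probe set stood at 1.56 on the untreated array. It stood at 12.0, 3.21 and 4.76 in the diabetogenic arm (days 3, 4 and 8). It stood at 9.55, 5.75, 16.5 and 4.37 in the protected arm (days 3, 4, 5 and 8). All 7 arrays of injected mice were thus above the untreated one, with the highest values on both day 3 arrays and the protected array of day 5, and the arms overlapped. Only those 3 were above the Bacillus level. On day 3 the level was 3.82-fold (diabetogenic) and 3.15-fold (protected) that of untreated islets, and on the protected array of day 5 it was 5.01-fold. In these bulk pools, more cells that make a transcript and more transcript per cell cannot be told apart.

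The Icam1 promoter is shown because Icam1 was the member farthest above untreated islets on most arrays. It is 250 bases before and 50 bases from the start of transcription, from RefSeq on GRCm38.p6, chr9:21015690-21015989, plus strand, with the match to the STAT site in capitals.

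Icam1: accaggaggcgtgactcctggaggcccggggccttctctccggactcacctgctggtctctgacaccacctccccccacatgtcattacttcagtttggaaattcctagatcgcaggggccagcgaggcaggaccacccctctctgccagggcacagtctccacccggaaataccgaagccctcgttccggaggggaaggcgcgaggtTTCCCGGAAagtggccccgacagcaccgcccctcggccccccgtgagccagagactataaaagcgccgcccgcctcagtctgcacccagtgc

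The match TTCCCGGAA lies 42 to 34 bases before the start. The motif searched was TTCNNNGAA, which reads the same on both strands and is bound by STAT proteins, the factors that carry interferon signals. It was found in 8.30% of all 32851 promoters of this length. The NF-kB consensus and the interferon response element, searched on both strands, were in 8.46% and 3.44% of promoters. They had no match in these 300 bases of Icam1. The NF-kB letters searched were GGGRNNYYCC, with R for A or G and Y for C or T. So strict a pattern misses sites that depart from it, so the lack of a match does not show that NF-kB sites are absent.

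Vcam1 encodes the endothelial ligand of the integrin VLA-4, which activated T cells carry. Its brightest probe set (1448162_at) stood at 3.77 on the untreated array, and at 14.5, 1.98 and 9.81 in the diabetogenic arm (days 3, 4 and 8). In the protected arm (days 3, 4, 5 and 8) it stood at 8.40, 1.43, 13.3 and 8.06. The pattern resembled that of Icam1 on day 3 and day 5, but both day 4 arrays lay below the untreated one. The level was 2.81-fold that of untreated islets on the diabetogenic array of day 3, 1.78-fold on the protected one and 2.60-fold on the protected array of day 5.

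The other probe sets of Vcam1 did not all show this. The second (1451314_a_at) stood at 5.54 on the untreated array and on day 3 at 7.23 in the diabetogenic and 3.82 in the protected arm, so the protected array lay below untreated islets. The third (1415989_at) stood at 2.14, 2.39 and 2.87 on the same arrays, near the bottom of the scale. The value of Vcam1 on day 3 therefore rests on 1 probe set, while its high value on the protected array of day 5 was shared by the third, at 12.7.

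Sele encodes E-selectin, made almost only by cytokine-activated endothelium. It stood at 1.64 on the untreated array, at 9.82, 1.55 and 5.45 in the diabetogenic arm (days 3, 4 and 8), and at 2.82, 1, 2.13 and 3.03 in the protected arm (days 3, 4, 5 and 8). The diabetogenic array of day 3 was the only one above the Bacillus level. It was 3.16-fold above untreated islets, against 1.31-fold for the protected array of that day, and the arms differed 2.41-fold. On each matched day the diabetogenic array was the higher of the pair, although the ranges of the arms overlapped.

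The Sele promoter is shown since Sele was the only member at least 2-fold apart between the arms on day 3. It is from RefSeq on GRCm38.p6, chr1:164047984-164048283, plus strand, again with the STAT site in capitals.

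Sele: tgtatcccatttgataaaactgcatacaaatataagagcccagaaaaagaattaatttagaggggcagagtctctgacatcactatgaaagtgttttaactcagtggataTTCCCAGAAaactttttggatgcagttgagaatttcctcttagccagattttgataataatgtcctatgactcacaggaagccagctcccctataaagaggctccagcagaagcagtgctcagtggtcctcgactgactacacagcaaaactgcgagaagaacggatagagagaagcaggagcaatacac

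Sele thus held 1 STAT match, TTCCCAGAA, from 140 to 132 bases before the start. It had no match to the letters of the other motifs, which again does not show that NF-kB sites are absent. That holds for the stretch in capitals as well, which is marked only for its match to the STAT letters.

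Selp encodes P-selectin, stored by endothelium and platelets for rapid release. Its brightest probe set (1420558_at) stood at 2.58 on the untreated array, at 2.36, 8.98 and 10.6 in the diabetogenic arm (days 3, 4 and 8), and at 1.63, 5.95, 3.27 and 2.67 in the protected arm (days 3, 4, 5 and 8). It was thus at or below untreated islets on day 3, when Icam1, Vcam1 and Sele were high, and higher on the later diabetogenic arrays. Only the diabetogenic array of day 8 was above the Bacillus level. The second probe set (1449906_at) stood between 4.14 and 5.36 on all 5 later arrays of both arms and between 1.70 and 2.25 before, and on day 8 the protected array was the higher, at 5.20 against 4.32. The third stayed between 1 and 4.06, and the probe sets therefore disagree on any difference between the arms. Platelet and megakaryocyte markers were measured beside it, since platelets also make P-selectin. The summed intensity of the 5 tested was 19.2 on the untreated array, 21.1 to 34.8 on the diabetogenic and 28.1 to 139 on the protected arrays. Pf4 alone made 105 of the highest sum, on the protected array of day 5. Itga2b stood at 20.8 there, against 5.20 in untreated islets. Ppbp, Gp1bb and Gp9 stood at 5.28, 5.82 and 1.72 there, against 2.94, 4.22 and 1.82 in untreated islets. The part of platelets in the values of Selp was not tested.

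Madcam1 encodes the ligand of the gut-homing integrin α4β7. It stood at 4.38 on the untreated array, at 6.39, 1.48 and 5.50 in the diabetogenic arm (days 3, 4 and 8) and at 6.04, 3.13, 3.28 and 4.83 in the protected arm (days 3, 4, 5 and 8). The arrays of day 3 were highest, at 1.31-fold and 1.25-fold the untreated level, and no array was 2-fold away from it. Its promoter is shown because it was the member promoter with the most NF-kB matches, beside values that stayed within 2-fold of untreated islets. It is from RefSeq on GRCm38.p6, chr10:79664309-79664608, plus strand, with the NF-kB matches in capitals.

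Madcam1: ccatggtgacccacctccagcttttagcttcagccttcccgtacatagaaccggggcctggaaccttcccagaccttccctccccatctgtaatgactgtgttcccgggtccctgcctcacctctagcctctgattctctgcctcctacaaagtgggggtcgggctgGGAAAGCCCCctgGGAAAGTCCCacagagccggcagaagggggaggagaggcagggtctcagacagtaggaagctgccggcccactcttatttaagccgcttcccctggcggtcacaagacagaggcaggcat

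Both matches, GGAAAGCCCC at 83 to 74 and GGAAAGTCCC at 70 to 61 bases before the start, lie on the opposite strand. The table held promoters of 5 members. That of Kdr had 1 NF-kB match and that of Selp had no match to any of the 3 motifs. A match is a description of letters and not a bound site.

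Among the constitutive genes, Plvap stood at 36.3 on the untreated array. In the diabetogenic arm (days 3, 4 and 8) it stood at 29.1, 4.84 and 29.6. In the protected arm (days 3, 4, 5 and 8) it stood at 31.8, 20.6, 27.4 and 27.4. All 7 injected arrays were below the untreated one, but 6 of them lay within 1.69-fold of it. The diabetogenic array of day 4, with the fewest bright probe sets of all 8, was the exception at 5.49-fold lower. Its value of 4.84 was below the Bacillus level of that array, 9.20. Between the arms, day 8 gave a fold of 1.07.

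Kdr encodes VEGFR2, the main signalling receptor for VEGF on endothelium. It stood at 12.0 on the untreated array and, on day 3, at 11.7 in the diabetogenic and 12.8 in the protected arm, so the 3 arrays that share low spiked controls hardly differed. On the diabetogenic arrays of days 4 and 8 it stood at 1, the lowest value either array holds and one shared by 2.94% and 3.31% of its probe sets. In protected islets it stood on days 4, 5 and 8 at 4.84, 17.4 and 14.4. The diabetogenic array was the lower on each matched day, by 1.08-fold on day 3 and 5.25-fold on day 8, where its own value of 1 was not above background. On day 4 both arms were below the Bacillus level, so that day gives no measured fold. Plvap was low on the diabetogenic array of day 4 as well, but not on that of day 8.

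Esam encodes a junctional adhesion molecule of endothelium and platelets. It stood at 4.88 on the untreated array, at 5.97, 6.12 and 8.51 in the diabetogenic arm (days 3, 4 and 8), and at 7.62, 2.89, 7.64 and 2.40 in the protected arm (days 3, 4, 5 and 8). No array was 2-fold from untreated islets, and the sign of the arm difference on day 3 was opposite to that on days 4 and 8.

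Cdh5 was represented by a pair of probe sets that disagreed. The one used (1433956_at) stood at 5.25 on the untreated array, at 5.18, 5.11 and 1.61 in the diabetogenic arm (days 3, 4 and 8), and at 5.64, 1.42, 7.48 and 5.87 in the protected arm (days 3, 4, 5 and 8). The other (1422047_at) stood at 5.80 on the untreated array, at 2.47, 8.24 and 5.81 in the diabetogenic arm and at 1.82, 4.62, 2.45 and 4.17 in the protected arm, in order of day. It was the first that hardly moved on day 3 and the second that was low on both day 3 arrays, so no direction can be given for Cdh5. Pecam1, which encodes CD31, was not tested, as it reached its array's median on 1 array only. It stood between 1.06 and 4.68.

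**Figure D2:**
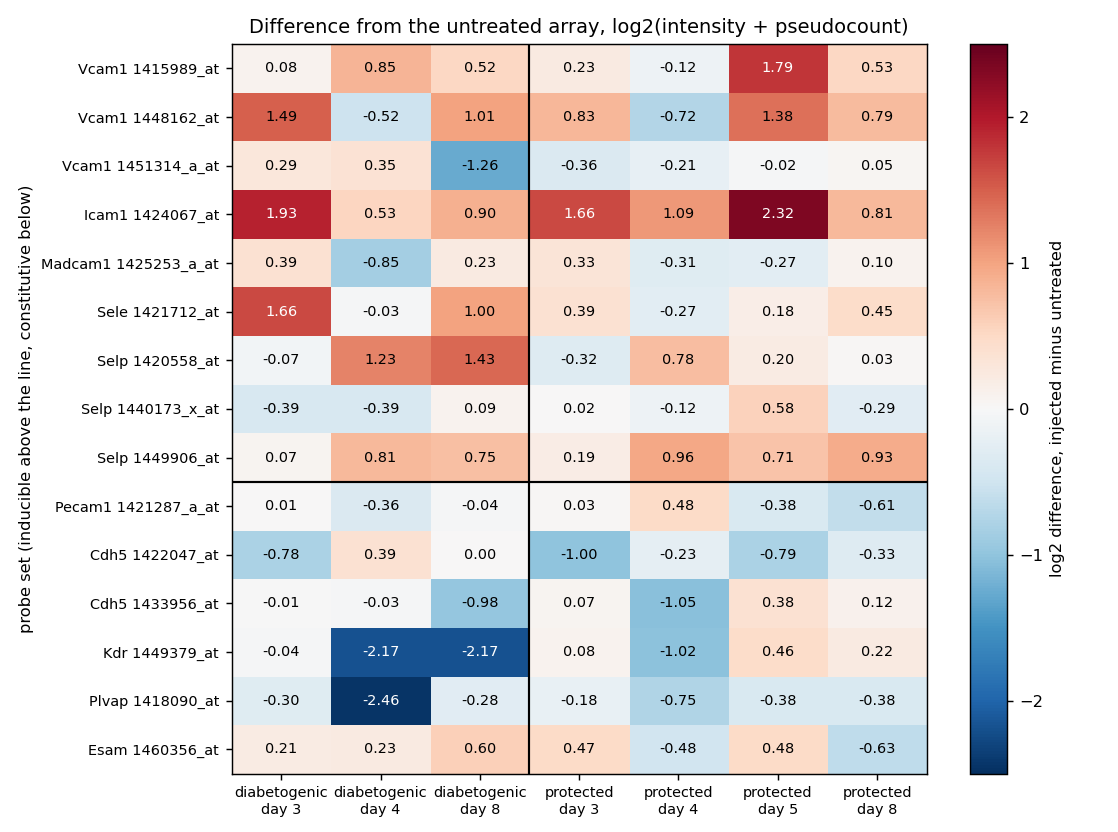
Difference of log2(intensity + 2.155) between each injected array (columns) and the untreated array, for all 15 probe sets (rows); red is higher and blue lower than untreated islets. Icam1 is positive in all 7 columns, from 0.53 to 2.32, while Kdr is at -2.17 in both later diabetogenic columns.

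Both classes were set against untreated islets array by array. On the diabetogenic array of day 3, 3 of 5 tested inducible genes (Icam1, Sele and Vcam1) and 0 of 4 constitutive genes were at least 2-fold higher and 0 members 2-fold lower. Of all 16396 genes tested, 2.81% were 2-fold higher there and 1.23% lower, 4.04% in all. On the protected array of day 3 it was 1 inducible gene (Icam1) and 0 constitutive ones that were 2-fold higher, with 2.20% of all genes higher and 1.08% lower, 3.28% in all. The classes overlapped on both arrays: Esam, at 0.21 and 0.47, lay above Selp, at -0.07 and -0.32, and on the protected array also above Sele and Madcam1. These counts depend on the pseudocount: at 4 times the value, 1 member was 2-fold apart on the diabetogenic and 0 on the protected array. The inducible genes' median difference was 1.49 on the diabetogenic and 0.39 on the protected array of day 3. It was -0.02 and 0.08 for the constitutive genes and -0.05 and -0.04 over all genes. Each inducible median is the value of 1 gene. The 1.49 is the probe set used for Vcam1, whose other probe sets gave 0.08 and 0.29 on the diabetogenic array. The 0.39 is Sele, below the Bacillus level on both the protected and the untreated array. The other endothelial markers, 20 genes tested, had medians of -0.01 and -0.04 on the day 3 arrays, with 0 of them 2-fold higher.

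After day 3 far more of all genes were 2-fold apart, 35.8% and 36.9% in diabetogenic islets of days 4 and 8 and 30.4%, 19.8% and 24.6% in protected islets of days 4, 5 and 8. In diabetogenic islets of day 4, 1 inducible gene (Selp) was 2-fold higher and 2 constitutive genes (Kdr and Plvap) lower, with 9.81% of all genes higher and 26.0% lower. On day 8 they were 3 (Selp, Vcam1 and Sele) and 1 (Kdr), with 14.3% of all genes higher and 22.6% lower. The probe sets of Vcam1 disagreed on that array. The one used was 2.02-fold higher than in untreated islets, the second (1451314_a_at) 2.39-fold lower and the third (1415989_at) 1.44-fold higher.

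In protected islets of day 4, 1 inducible gene (Icam1) was 2-fold higher and 2 constitutive genes (Cdh5 and Kdr) lower, with 10.1% of all genes higher and 20.4% lower. On day 5 it was 2 inducible genes (Icam1 and Vcam1) and 0 constitutive ones, with 9.76% of all genes higher. On day 8 it was 0 members, with 9.76% of all genes higher and 14.8% lower. Of these calls, Selp on day 4, Icam1 on day 4 and Sele on day 8 compare values that were at or below the Bacillus level on both arrays, so they are not measured differences.

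The same comparisons were fitted over each arm with limma, the lone untreated array being assumed to vary like arrays of different days. Of the 9 members tested, 0 passed in either arm at a Benjamini-Hochberg adjusted p of 0.05, and neither did any other gene (0% of all genes called in each). At an unadjusted p under 0.05, 450 and 371 genes were found. Icam1 had the largest positive difference of the members in both arms, 1.12 ± 0.73 (SE, 3 diabetogenic arrays, limma adjusted p = 0.894) and 1.47 ± 0.70 (SE, 4 protected arrays, limma adjusted p = 0.9998). Its 95% interval in the protected arm, -0.02 to 2.96, holds both no change and a rise past that seen on any day. Both comparisons share the untreated array.

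Among the members below untreated islets, Kdr was at -1.46 ± 0.86 in the diabetogenic and -0.06 ± 0.83 in the protected arm, and Plvap at -1.01 ± 1.06 and -0.42 ± 1.03 (limma, adjusted p from 0.894 to 0.9998). Without its array of day 4 the diabetogenic value of Plvap was -0.29, and without its array of day 3 that of Icam1 was 0.71. With the split in spiked controls as a block, which leaves day 3 as the only link to the untreated array, Icam1 was at 1.59 and 2.00, Kdr at -0.72 and 0.77, and Plvap at -0.56 and 0.08. Kdr and Plvap of the protected arm thus changed sign. The change per day over the 7 injected arrays called 0 members and 0% of all genes by limma, with 1475 genes at an unadjusted p under 0.05.

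By design the arms differed in the injection of anti-Ifng antibody. With no control antibody named, neutralising interferon-γ and injecting an antibody cannot be told apart. The arms were compared over the 3 matched days with day as a block. Of the 9 members, 0 passed (limma, adjusted p from 0.372 to 0.981), against 0.110% of all genes, that is 18. At an unadjusted p under 0.05 there were 2 members (Kdr and Sele) and 1471 genes in all. With the pair of day 3 left out, the smallest adjusted p of a member was 0.0743, for Kdr. For Icam1 the difference, diabetogenic minus protected, was -0.07 ± 0.35 (SE, 3 day pairs), with a 95% interval from -0.79 to 0.66. The data therefore leave room for a difference of up to about that size in either direction. Vcam1 was at 0.36 ± 0.35, or 0.22 when day 3 was left out, and Madcam1 at -0.12 ± 0.34.

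The largest differences among the inducible genes were those of Selp, 0.70 ± 0.35, and Sele, 0.68 ± 0.33, both with a positive sign on all 3 days (limma adjusted p = 0.565 and 0.556). Without the pair of day 3, Sele was at 0.39, and without that of day 8, Selp was at 0.36. For Selp the result depends on the probe set: the second gave -0.15 and the mean of the tested probe sets 0.28. Both genes were brightest, and above the Bacillus level, on single arrays of the diabetogenic arm.

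Kdr had the largest difference of all members, -1.22 ± 0.38 (2.33-fold lower, limma adjusted p = 0.372), larger in size than that of 98.5% of all genes. It was negative on each of the 3 days, but near 0 on day 3, at -0.11, and on day 4 neither arm was above the Bacillus level. On days 4 and 8 fewer probe sets were bright in the diabetogenic than in the protected arm, at 0.850% and 2.23% on day 4 and at 2.00% and 3.09% on day 8. The part of array brightness in the value of Kdr was not tested. Plvap differed by -0.57 ± 0.46, a value that came from day 4, at -1.70, with -0.12 and 0.10 on days 3 and 8. Leaving out day 8 put Kdr at -0.63 and Plvap at -0.91, and leaving out day 4 put Plvap at -0.0076. Esam was at 0.56 ± 0.36, with 0.97 when day 3 was left out and 0.22 when day 8 was. Cdh5 was at -0.05 ± 0.36, and the mean of the probe sets turned Cdh5 to 0.17.

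**Figure D3:**
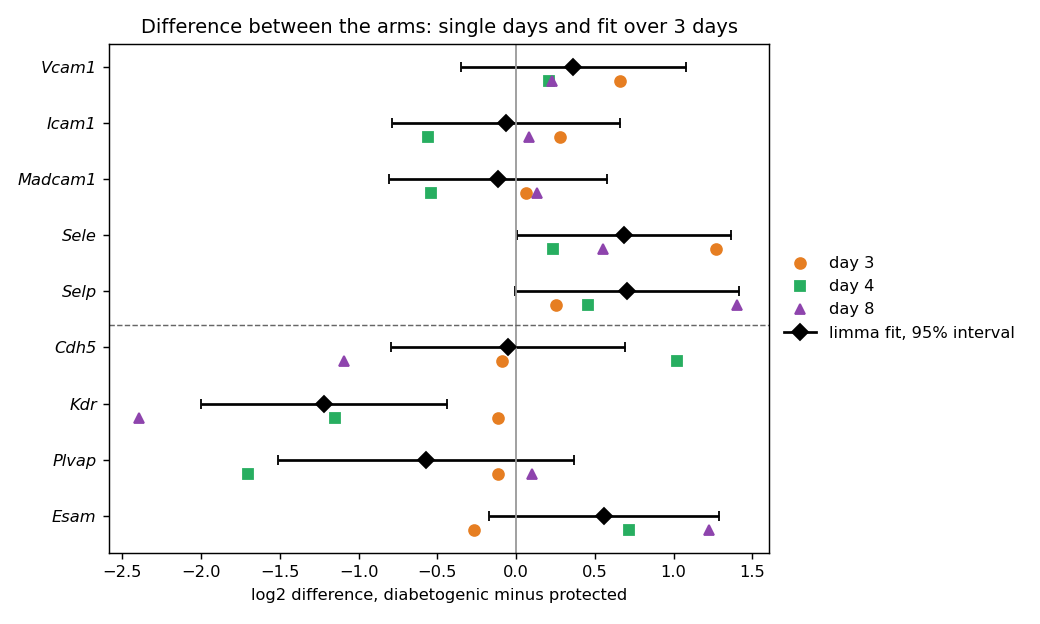
Difference between the arms on the log2 scale, diabetogenic minus protected, for the 9 tested genes; symbols are single days and black diamonds the limma fit over the 3 days with its 95% interval, inducible genes above the dashed line. The interval of Kdr lies below 0, from -2.00 to -0.44, yet its adjusted p is 0.372.

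Day by day, 1 member (Sele) was at least 2-fold apart between the arms on day 3, where 1.85% of all genes were, and 0 members were at 4 times the pseudocount. On day 4 it was 3 members (Cdh5, Kdr and Plvap), with 19.9% of all genes, and on day 8 it was 4 (Selp, Cdh5, Kdr and Esam), with 22.9%. Cdh5 on both days and Kdr on day 4 were at or below the Bacillus level in both arms. All 5 inducible genes were higher in the diabetogenic array on days 3 and 8, with medians of 0.28 and 0.23. On day 4, 3 of 5 were. Over all genes the medians of days 3 and 8 were -0.02 and -0.10. Selp on day 3, all 5 on day 4, and Icam1, Madcam1 and Sele on day 8 were below the Bacillus level in both arms. Their signs are therefore not measured differences. The other probe sets were mixed on days 3 and 8. For Vcam1, 1451314_a_at gave 0.65 and -1.31 and 1415989_at gave -0.14 and -0.0023. For Selp, 1449906_at gave -0.12 and -0.18 and 1440173_x_at gave -0.41 and 0.38. The 4 constitutive genes were all slightly lower on day 3, with a median of -0.12, and split evenly on days 4 and 8. The values of day 3 for Icam1, 0.28, and Madcam1, 0.06, were small beside that of Sele, 1.27.

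Other endothelial genes were spread on both sides of 0. Of 20 other endothelial markers tested, 0 passed in any of the fits, 11 were positive and 9 negative between the arms, and their median was 0.01, against -0.07 over all genes. The largest of them were Mmrn2, which encodes an endothelial matrix protein (-0.88 ± 0.37), and Egfl7, a secreted endothelial factor (-0.76 ± 0.38). Egfl7 stood at 13.3 on the untreated array, at 16.1, 3.27 and 1.35 in the diabetogenic arm (days 3, 4 and 8) and at 16.5, 5.25, 11.5 and 9.94 in the protected arm (days 3, 4, 5 and 8). Its lowest values were on the same 2 arrays as those of Kdr. Of these 20 markers, 11 were above the Bacillus level in untreated islets. In the diabetogenic arm 11, 0 and 5 were above it on days 3, 4 and 8. In the protected arm 10, 3, 12 and 6 were, on days 3, 4, 5 and 8. Over all probe sets the share above that level was 37.4% in untreated islets and 36.0%, 9.71% and 24.3% in the diabetogenic arm. In the protected arm it was 39.1%, 23.1%, 35.8% and 18.8%, in order of day. The count of markers and the share of all probe sets were thus both lower on days 4 and 8, when the level itself was higher.

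The leukocyte side of adhesion was measured on the same arrays. Of 8 tested counter-receptor genes (integrin chains, Cd44, Glg1 and Selplg), 0 passed, and 2 were positive and 6 negative between the arms, with a median of -0.26. Cd44, a receptor for hyaluronan that also binds selectins, was at -1.06 ± 0.39 and the integrin chain Itgb1 at -0.69 ± 0.40. Selplg, the ligand of P-selectin named here after its values were seen, stood at 1 on the untreated array, at 7.60, 1.59 and 25.4 in the diabetogenic arm and at 3.52, 2.99, 15.6 and 28.4 in the protected arm, in order of day. It was highest on day 8 in both arms, with the protected array of day 5 next.

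Macrophages and other myeloid cells also make ICAM-1, and their markers were measured beside it. All 7 tested myeloid markers were above untreated islets in the fits of both arms, with 0 passing. Their summed intensity came to 46.0 in untreated islets, 146, 139 and 1249 in the diabetogenic arm (days 3, 4 and 8), and 224, 1462, 1013 and 992 in the protected arm (days 3, 4, 5 and 8). Csf1r makes up most of that sum. Their median difference from untreated islets was 1.15 (diabetogenic) and 2.00 (protected) on day 3 and 2.95 on the protected array of day 5, where Icam1 was highest. T cell markers, 5 tested with 0 passing, had medians of 0.38, 0.52 and 0.37 on those 3 arrays. The part of these cells in the values of Icam1 was not tested.

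**Figure D4:**
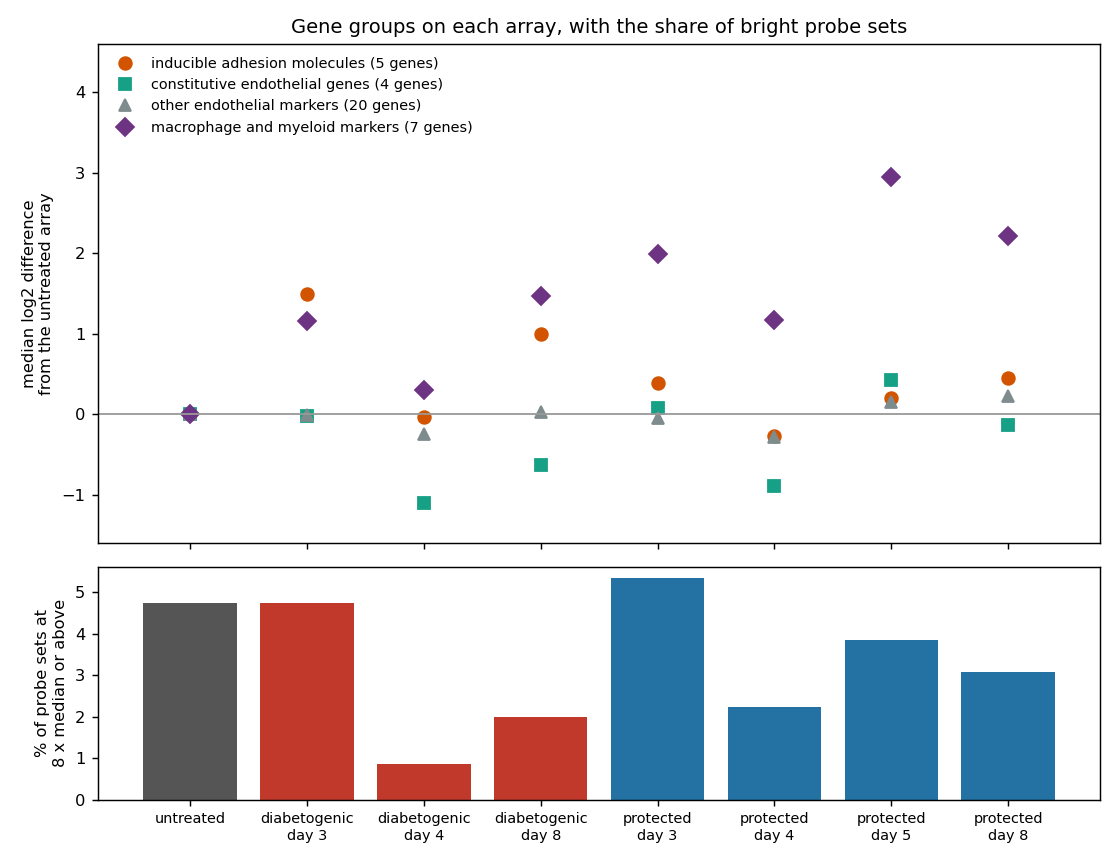
Upper panel, median log2 difference from the untreated array of 4 gene groups on each array; lower panel, the percent of probe sets that reach 8 times the median of their array. The inducible genes are highest on the diabetogenic array of day 3, at 1.49, the value of 1 probe set of Vcam1. The constitutive genes are lowest on the diabetogenic array of day 4, at -1.10, which has the smallest share of bright probe sets. There Kdr and Plvap were at -2.17 and -2.46, Cdh5 and Esam at -0.03 and 0.23, and 0 of the 4 were above the Bacillus level.

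Genes that act before or beside the adhesion molecules gave no calls either. Of 15 tested cytokines and receptors that induce adhesion molecules, 0 passed, 7 were positive and 8 negative between the arms, and 12 and 13 were above untreated islets in the diabetogenic and protected fits. The largest were Il13, which induces VCAM-1 (0.95 ± 0.35), and Tnf (0.79 ± 0.34), with Il1b, named after its values were seen, as far from 0 in the opposite direction (-0.79 ± 0.38). Of 9 NF-kB, IRF1 and STAT genes, 0 passed and 7 were negative. Nfkbia, the NF-kB inhibitor that NF-kB itself induces, stood at 93.3 on the untreated array, at 220, 21.5 and 68.4 in the diabetogenic arm and at 333, 77.9, 214 and 210 in the protected arm, in order of day. It was highest on both day 3 arrays, with the protected arrays of days 5 and 8 next, and lowest on the diabetogenic array of day 4. Relb, an NF-kB subunit, was at 0.90 ± 0.36.

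The remaining lists also gave 0 calls in each fit. In the VEGF and angiopoietin system, 3 of 10 were positive and 7 negative between the arms, with Vegfa, the main ligand of the Kdr product, at -0.59 ± 0.38 and Vegfb at -0.56 ± 0.33. Of 10 junction and transmigration genes, 9 were negative (median -0.27), with F11r, which encodes the junctional molecule JAM-A, at -1.18 ± 0.35 and Cd47 at -0.63 ± 0.44. Of 6 L-selectin ligand genes of high endothelial venules, the vessels that admit lymphocytes to lymph nodes, 5 were negative (median -0.16), with Chst2 at -0.48 ± 0.35 and Glycam1 at 0.43 ± 0.34. Of 3 lymphatic endothelial markers, 3 were negative, with Lyve1 at -0.39 ± 0.34 and Pdpn at -0.29 ± 0.38. Of 7 mural cell markers, the pericytes and smooth muscle around vessels, 5 were negative (median -0.52), with Acta2 at -1.45 ± 0.44 and Tagln at -0.83 ± 0.37.

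Markers of other cells in the captured tissue were compared in the same way. The summed intensity of 6 acinar genes came to 1074 in untreated islets, 984, 97.1 and 126 in the diabetogenic arm (days 3, 4 and 8) and 971, 2163, 430 and 680 in the protected arm (days 3, 4, 5 and 8). Of these, 6 of 6 were negative between the arms (median -2.05), with Cela1 at -2.55 ± 0.72 and Prss2 at -2.37 ± 1.08. For beta cells 6 of 6 were negative (median -0.55), with Iapp at -1.33 ± 1.68 and G6pc2 at -0.84 ± 0.43. For fibroblasts 4 of 5 were negative (median -0.52), with Col1a2 at -0.92 ± 0.55 and Dcn at -0.83 ± 0.37. For platelets 2 of 5 were (median 0.16), with Pf4 at -1.39 ± 0.40 and Itga2b at -1.02 ± 0.37. All 7 myeloid markers and all 5 T cell markers were negative, with Itgax at -1.65 ± 0.39, Csf1r at -1.29 ± 1.28, Cd3e at -1.30 ± 0.39 and Thy1 at -0.48 ± 0.42. Their part in the values of the members was not tested.

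Patterns over the 8 arrays were compared as a description, with the arrays differing in brightness as given above. The 5 genes most like the mean of the 4 constitutive members were Wdr5, Anxa4, Mtpn, Vps36 and Ak1, with Pearson's r of 0.986 to 0.989, and 817 genes in all had an r over 0.9 with it. Those most like Vcam1 were Smg1, Ccrl2, Tspyl1, Ddx58 and Mxd1 (r of 0.944 to 0.963), and those most like Icam1 were AA467197, Csf2rb2, Pik3ap1, Sox13 and Atf3 (r of 0.935 to 0.953). Only 23 and 9 genes had an r over 0.9 with Vcam1 and Icam1. Vcam1 and Icam1 had an r of 0.67 with each other, Vcam1 and Sele of 0.76, and Selp and Kdr of -0.94. The value for Selp and Kdr is from the brightest Selp probe set, above the Bacillus level on 1 array. Kdr was above it on 5 arrays and at 1 on the diabetogenic arrays of days 4 and 8.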

How the data were processed

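Islet RNA of 8 pools was amplified, labelled with biotin and hybridised to Affymetrix arrays, per the labels' protocols. The deposited table holds probe set intensity values on a linear scale, 1 column per array. The summary method and scale behind them are not given in the sources used here. Array medians of log2 values lay within 0.21 of each other, under a limit of 0.3, so the deposited scale was kept. Symbols came from the platform annotation of 2016 (34958 of 45101 probe sets with 1 symbol, 932 with several, 9211 with none), and 64 control probe sets were left out of the tests, leaving 16396 genes. Fits used limma 3.58.1 in R 4.3.3 (lmFit, eBayes with a variance trend) and Benjamini-Hochberg adjustment over all genes, and were checked on simulated data. In the matched-day fit a gene's own spread had 2 degrees of freedom against 29.99 from all genes, so its errors rest mostly on genes of like level. The number of arrays limits precision, and with 1 pool per arm and day the spread is between days, not mice.

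The members and lists were chosen with earlier results of these data known. Named beside the members were any list gene past the threshold and otherwise the 2 per list with the largest arm difference, plus the 5 genes most like the constitutive mean, Vcam1 and Icam1. Alternatives were other pseudocounts, normalizations, filters, probe set rules, a fit without variance trend, no day block, a block for spiked controls, and leaving out single arrays or day pairs.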

Additional observations from a re-analysis of the deposited data

How the results depend on the processing

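Across 357 recomputed values of the members in the 3 comparisons between groups, 0 passed the threshold and 25 changed sign, each of them an uncalled value. No member passed in the change per day under any alternative run. Between the arms, cyclic loess gave 0.057 for Icam1 and 0.017 for Plvap, the filter at 4 arrays -0.15 for Selp (another probe set) and the mean of probe sets 0.17 for Cdh5. Against untreated islets, cyclic loess gave 6.1e-05 for Plvap in the diabetogenic arm and 0.0050 for Kdr in the protected arm, and the higher pseudocount 0.0030 for Esam in the protected arm. With spiked controls as a block, Madcam1 was at 0.31 in the diabetogenic arm, and in the protected arm Madcam1 was at 0.40, Selp at -0.59, Cdh5 at 0.15, Kdr at 0.77, Plvap at 0.083 and Esam at 0.16. The cause was not tested.

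Leaving out a day pair, the arm difference ran from -0.24 to 0.18 for Icam1, from -0.24 to 0.10 for Madcam1 and from -0.59 to 0.47 for Cdh5. Leaving out an array, Madcam1 ran from -0.31 to 0.31 in the diabetogenic arm, and in the protected arm Madcam1 from -0.16 to 0.052, Selp from -0.033 to 0.33, Cdh5 from -0.29 to 0.19, Kdr from -0.24 to 0.26 and Esam from -0.21 to 0.16.

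Over all genes, the 18 called between the arms became 8 with the higher pseudocount, 1 with quantile normalization, 10 without the filter, 51 with the filter at 4 arrays, 1 with the mean of probe sets, 11 without the variance trend, 0 without the day block, and 33 to 69 without a day pair. The protected comparison gave 1 with quantile normalization and 0 to 1 without an array. The change per day gave 13 with cyclic loess, 2 without the trend, 7 with the spiked control block and 0 to 7 without an array.

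The pseudocount and scale moved the single-day counts of members at least 2-fold apart, in alternatives chosen after seeing the data. At 4 times the pseudocount the arms were apart for 0, 1 and 1 members on days 3, 4 and 8, and cyclic loess gave 1 on day 4. Against untreated islets that pseudocount gave 1 and 1 for diabetogenic islets (days 3 and 8) and 0, 0 and 1 for protected islets (days 3, 4 and 5). With the main pseudocount divided by 4, protected islets of days 3, 4 and 8 gave 2, 5 and 1, and quantile normalization gave 2 on the diabetogenic array of day 8. Signal near background limits every member, and for Plvap it does so on the diabetogenic array of day 4 only.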
